A study of Mus musculus with 16 samples.

Results

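The phase II conjugation enzymes described here are 3 families of transferases that attach a polar group to drugs, hormones, bile acids and toxins. They were taken from the gene table by symbol: the classes Gsta, Gstm, Gstp, Gstt, Gsto and Mgst for glutathione transfer, Ugt1a, Ugt2a, Ugt2b and Ugt3a for glucuronide transfer, and Sult with a digit for sulfate transfer, each symbol ending in a number and none a pseudogene. The rule found 62 genes of the 55416 in the table, namely 23 glutathione transferases, 18 glucuronide transferases and 21 sulfate transferases. It leaves out Ugt1a6a, Ugt1a6b and Ugt1a7c, whose symbols end in a letter. RNA was sequenced from primary mouse hepatocytes in culture, in 4 groups of 4 samples. FLOX cells carried no Cre recombinase (Alb-cre-), and HKO cells carried Cre under the promoter of albumin (Alb-cre+), the gene of a protein made by hepatocytes, in a cross built to delete Smpd3. Both genotypes were cultured for 24 h with vehicle alone or with palmitic acid, a saturated fatty acid, at 0.4 mM. Nothing in the labels says that the 4 samples of a group came from separate mice or cultures, so every p-value here measures only how much these samples vary, and that variation may be technical.

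Conjugation follows or replaces oxidation by cytochrome P450 enzymes in the liver and makes a compound easier to export into bile or urine. Glutathione transferases couple the tripeptide glutathione to reactive, electrophilic compounds; most are soluble, while the Mgst enzymes sit in membranes. UDP-glucuronosyltransferases work in the endoplasmic reticulum and take glucuronic acid from UDP-glucuronate, except that the Ugt3a enzymes are known to use other UDP-sugars. Sulfotransferases of the Sult1 and Sult2 families work in the cytosol and take sulfate from the activated donor PAPS.

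Transcript levels were given as TPM, an abundance corrected for transcript length and scaled to nearly the same total in each sample, so levels of different genes can be set beside each other. The number of reads behind a TPM value is unknown, and the spread of the 4 samples of a group is the measure of precision. Smpd3, which encodes a neutral sphingomyelinase, stood at 37.1, 29.7, 27.8 and 33.2 TPM in FLOX cells with vehicle and at 42.5, 47.1, 46.7 and 47.8 TPM with palmitic acid. The HKO samples held 4.25, 5.89, 5.54 and 5.46 TPM with vehicle and 7.88, 9.15, 7.82 and 6.44 TPM with palmitic acid, all below every FLOX sample. Hepatocyte markers (7 of 7 found) summed to between 42905 and 44611 TPM in the vehicle groups and between 34822 and 36455 TPM in the palmitic acid groups. By the test described below, 6 of the 7 were lower and 0 higher with palmitic acid in each genotype. Their median log2 fold changes were -0.24 in FLOX and -0.22 in HKO cells. Between genotypes 3 were higher and 1 lower in HKO cells with vehicle, and 4 were higher and 1 lower with palmitic acid. Macrophage markers summed to 48.4 to 55.1 TPM in FLOX with vehicle and 80.9 to 107 TPM in HKO with palmitic acid, nearly all of it Cd68, and 5 of the 7 never reached 1 TPM. Cholangiocyte markers summed to 180 to 192 TPM in FLOX with vehicle and 299 to 325 TPM in HKO with vehicle, most of it Spp1. The 4 tested cholangiocyte markers went both ways: 2 were higher and 1 lower in HKO cells with vehicle, and 2 rose and 2 fell with palmitic acid in each genotype. The part of these markers in the results below was not tested.

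Of the 62 genes, 12 were listed at 0 in every sample, among them 8 sulfate transferases (Sult1c1, Sult2a1, Sult2a3, Sult2a4, Sult2a5, Sult2a6, Sult3a1 and Sult3a2), the glucuronide transferases Ugt1a8, Ugt2a1 and Ugt2a2, and Gstt4. In all, 23 genes stayed below 1 TPM in every sample. The 38 genes with at least 1 TPM in at least 4 samples entered the test: 20 of 23 glutathione, 12 of 18 glucuronide and 6 of 21 sulfate transferases. The lowest value of any of these 38 in any sample was 1.84 TPM, for Gstt3, so none passed this filter through 1 group alone.

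The summed transcript level of each class was lower with palmitic acid in both genotypes, and the glutathione transferases were by far the most abundant class. In FLOX cells with vehicle the 23 glutathione transferases summed to 8187, 8741, 8843 and 8682 TPM, against 7503, 6986, 6999.7 and 7118 TPM with palmitic acid. In HKO cells they summed to 8159, 7848, 8096 and 8002 TPM with vehicle and 6459, 6429, 6579.7 and 6744 TPM with palmitic acid. The ratio of the means with and without palmitic acid was 0.83 in FLOX and 0.816 in HKO cells, and the ranges did not overlap in either genotype.

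Glucuronide transferases summed to means of 389.8 ± 1.6 and 270.1 ± 13 TPM in FLOX cells with vehicle and palmitic acid (SD, n = 4), a ratio of 0.693. In HKO cells the means were 402.9 ± 2.4 and 263.5 ± 3.0 TPM (SD, n = 4), a ratio of 0.654. Sulfate transferases summed to 435.5 ± 7.5 and 254.0 ± 20.9 TPM in FLOX cells and to 418.4 ± 14.4 and 213.5 ± 13.5 TPM in HKO cells (SD, n = 4), ratios of 0.583 and 0.51. The sulfate class thus had the lowest ratio of the 3 in each genotype and the glutathione class the highest. The sulfate sum is mostly 1 gene, Sult1a1, with 80.6% of it in FLOX cells with vehicle. By the test described below, the median log2 fold changes of the tested genes ran the other way. They were -0.38, -0.26 and -0.24 in FLOX and -0.46, -0.37 and -0.27 in HKO cells for glutathione, glucuronide and sulfate transferases. The sums were not tested, and in such bulk samples fewer cells of a type and less RNA per cell cannot be told apart.

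**Figure D1:**
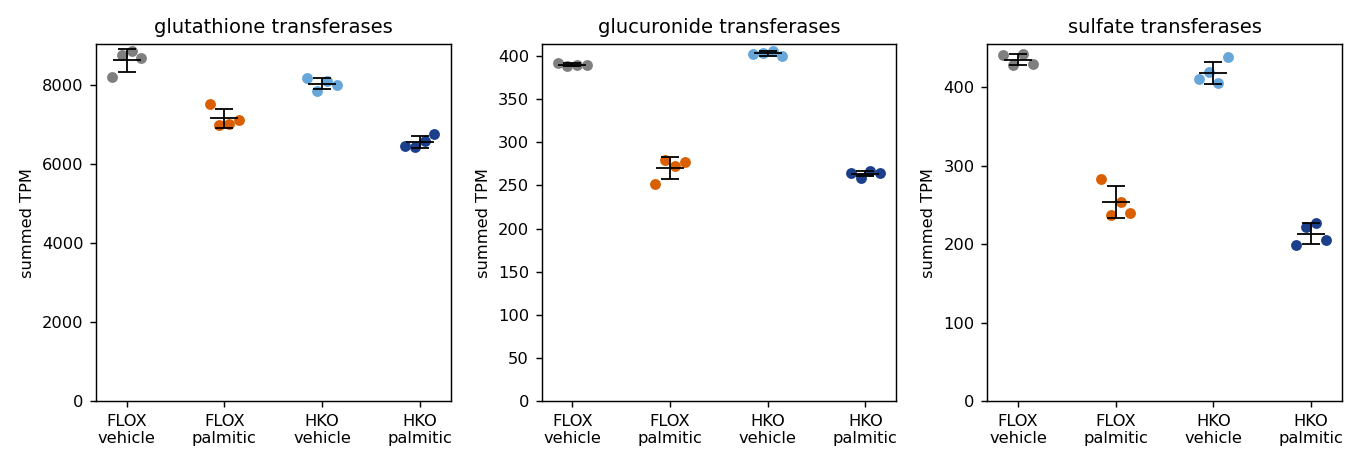
Summed TPM of all genes of each class in each sample (points), with the mean and SD of the 4 samples of a group (black), for FLOX and HKO hepatocytes with vehicle or palmitic acid. In every class the palmitic acid samples lie below the vehicle samples of the same genotype, with mean ratios from 0.83 for glutathione transferases in FLOX cells to 0.51 for sulfate transferases in HKO cells.

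A few genes make up most of each sum. Gstp1, a pi-class enzyme, held 44.8% of the glutathione transferase total in FLOX cells with vehicle, and Gsta1, Gstm1 and Mgst1 held 16.9%, 13.2% and 12.4%. Sult1a1, a phenol sulfotransferase, held 80.6% of the sulfate transferase total, followed by Sult1d1 with 12.5%. The glucuronide class was more even, with Ugt2b36 at 25.0%, Ugt2b5 at 15.2%, Ugt2b34 at 11.02% and Ugt1a1 at 11.01%.

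Palmitic acid lowered most of the tested transferases and raised 1. Changes were tested with limma on log2(TPM + 1), a scale that understates changes of low genes, with Benjamini-Hochberg adjustment over all 11858 genes and a threshold of 0.05 for the adjusted p. In FLOX cells 29 of 38 genes fell and 1 rose, where 34.4% of all genes tested passed, 11.5% as lower and 23% as higher. In HKO cells 32 of 38 fell and 1 rose, where 42.5% of all genes tested passed, 13.1% as lower and 29.4% as higher. The median log2 fold change of the 38 genes was -0.35 in FLOX and -0.39 in HKO cells, beside 0.10 and 0.11 over all genes tested. Under median-ratio scaling, which moved the median of all genes by -0.09 and -0.11, the all-gene shares called lower were 16.7% and 20% and those called higher 13.9% and 17.7%, while 32 of the 38 members were called lower in each genotype.

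The 2 palmitic acid comparisons use different samples but share 1 estimate of spread from the single fit. The 28 genes lower in both make up 28 of the 29 called lower in FLOX and 28 of the 32 called lower in HKO, and 9.48% of all genes tested were lower in both. Sult1e1 was higher in both, where 18.9% of all genes were. Sult5a1 passed in FLOX alone, Ugt2b38, Ugt3a1, Gstm7 and Sult1d1 passed in HKO alone, and Gstm5, Gsto1, Gstp2 and Sult1b1 passed in neither. The genes that passed in HKO alone depended on the scaling. Under quantile normalization all 12 tested glucuronide transferases were called lower in FLOX cells, Ugt2b38 and Ugt3a1 among them. Under median-ratio scaling 11 of the 12 were. Under either scaling 17 glutathione transferases were lower in FLOX cells, against 16 as reported. Sult1d1 also passed in FLOX cells under both, as given below. Without both FLOX libraries numbered 1, 26 members fell and 1 rose in FLOX cells, where 11.4% of all genes were called lower and 33.3% higher. Of these libraries, vehicle replicate 1 had a median-ratio scaling factor of 1.03, against 0.94 to 0.97 in the rest of its group. Palmitic acid replicate 1 had 0.985, against 1.05 to 1.08 in the rest of its group.

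**Figure D2:**
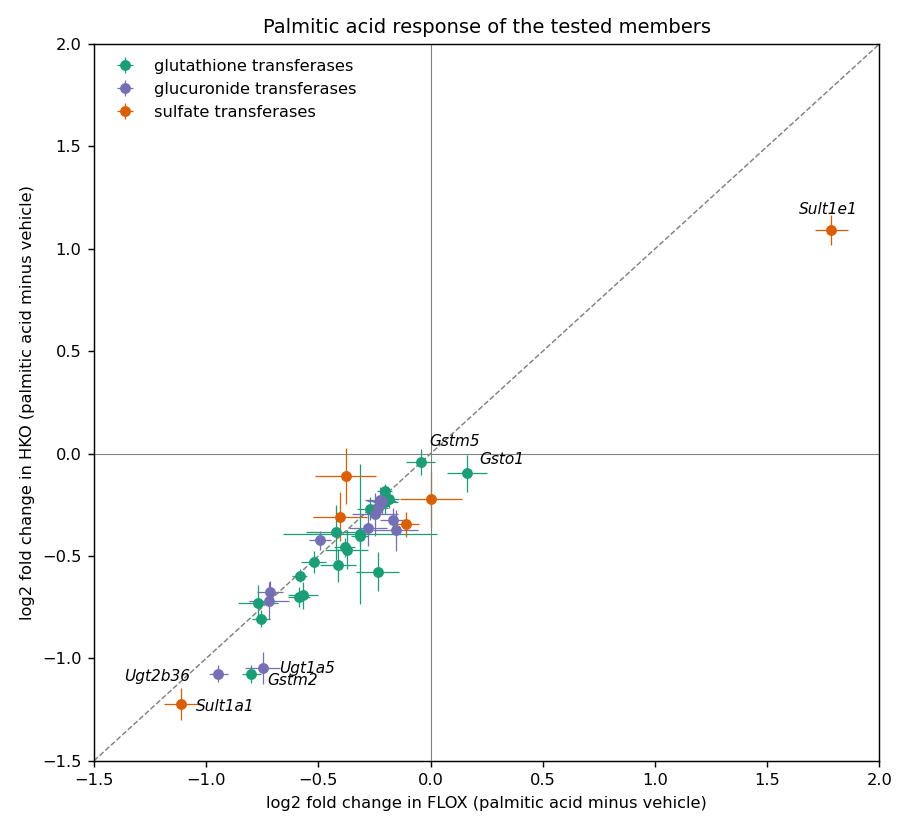
Log2 fold change (palmitic acid minus vehicle, on log2(TPM + 1)) of the 38 tested transferases in FLOX cells (horizontal) and HKO cells (vertical), coloured by class; bars are standard errors and the dashed line marks equal change. Most genes lie between 0 and -1.2 on both axes, Gstm5 and Gsto1 lie nearest to 0, and Sult1e1 stands alone at 1.79 and 1.09.

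Among the glutathione transferases 16 of 20 fell in FLOX and 17 of 20 fell in HKO cells, with median log2 fold changes of -0.38 and -0.46. Gstm2, a mu-class enzyme, stood at 108, 113, 117 and 122 TPM in FLOX cells with vehicle and at 67.5, 63.5, 64.4 and 67.8 TPM with palmitic acid. In HKO cells it stood at 109, 119, 115 and 112 TPM with vehicle and at 55.8, 52.5, 52.0 and 53.3 TPM with palmitic acid. The vehicle samples of the 2 genotypes overlapped, whereas the HKO samples with palmitic acid were the lowest of all 16. The log2 fold change was -0.80 ± 0.043, adjusted p = 1.43e-09 in FLOX and -1.08 ± 0.043, adjusted p = 4.31e-11 in HKO cells (± SE, limma, as below).

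Gsta3, an alpha-class enzyme known in mice for conjugating activated aflatoxin, went from 163, 166, 164 and 163 TPM to 102, 98.2, 92.9 and 93.3 TPM with palmitic acid in FLOX cells (-0.76 ± 0.041, adjusted p = 1.43e-09). Its HKO samples went from 143, 132, 145 and 147 TPM to 80.8, 79.5, 78.2 and 84.2 TPM (-0.81 ± 0.041, adjusted p = 5.01e-10). The 4 groups were separate, with FLOX vehicle highest and HKO with palmitic acid lowest.

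Gstp3 stood at 53.7, 52.1, 50.5 and 51.9 TPM in FLOX cells with vehicle and at 27.9, 29.4, 27.1 and 37.2 TPM with palmitic acid, a log2 fold change of -0.77 ± 0.089, adjusted p = 7.47e-06. HKO samples held 69.0, 67.3, 65.7 and 62.5 TPM with vehicle and 43.1, 33.2, 40.2 and 41.9 TPM with palmitic acid (-0.73 ± 0.089, adjusted p = 8.57e-06). Here the HKO vehicle samples were the highest of the 4 groups, and the palmitic acid samples of the 2 genotypes overlapped.

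Gstp1 was the most abundant transferase and changed little in proportion. It stood at 3576, 3954, 3968 and 3942 TPM in FLOX cells with vehicle and at 3743, 3278, 3223 and 3338 TPM with palmitic acid (-0.19 ± 0.043, adjusted p = 0.00362), and FLOX palmitic acid replicate 1 lay above FLOX vehicle replicate 1. In HKO cells the values were 4041, 3844, 3972 and 3946 TPM and 3419.8, 3326, 3379 and 3439 TPM (-0.22 ± 0.043, adjusted p = 7.47e-04), without overlap. Of the 50-base stretches of Gstp1 transcripts, 51.0% also occur in Gstp2, so reads cannot always be given to 1 of the 2. Gstp2 itself ranged from 16.7 to 66.2 TPM within the FLOX vehicle group alone. The sum of both genes was 3902 ± 174 and 3426 ± 241 TPM in FLOX cells with vehicle and palmitic acid and 3994 ± 92 and 3425 ± 53 TPM in HKO cells (SD, n = 4).

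Other abundant glutathione transferases moved the same way. Gstm1 fell from 1140.5 ± 25.0 to 761.0 ± 22.9 TPM in FLOX (SD, n = 4) and from 893.6 ± 34.1 to 590.6 ± 15.6 TPM in HKO cells. Mgst1, a membrane enzyme that also reduces lipid peroxides, fell from 1070.1 ± 10.7 to 929.8 ± 48.0 TPM and from 1008 ± 28 to 887.5 ± 14.7 TPM. Mgst3, which is linked to leukotriene metabolism, fell with log2 fold changes of -0.57 in FLOX and -0.69 in HKO cells.

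The omega-class enzyme Gsto1, which can reduce dehydroascorbate, did not pass in either genotype. It stood at 125, 121, 126 and 138 TPM with vehicle and 129, 152, 148 and 141 TPM with palmitic acid in FLOX cells, groups that overlapped (0.16 ± 0.090, adjusted p = 0.177). In HKO cells the values were 133, 130.4, 127 and 104 TPM and 104, 103, 123 and 134 TPM (adjusted p = 0.42), and these groups overlapped as well.

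All 12 tested glucuronide transferases fell in HKO cells and 10 of 12 fell in FLOX cells, with median log2 fold changes of -0.37 and -0.26. Ugt2b36, the most abundant, stood at 92.0, 101, 102 and 96.1 TPM in FLOX cells with vehicle and at 49.7, 48.9, 52.8 and 49.3 TPM with palmitic acid. In HKO cells it stood at 110.2, 104, 106 and 108 TPM and at 53.7, 48.5, 50.1 and 48.9 TPM. Treated samples did not overlap with vehicle samples in either genotype, and the palmitic acid samples of FLOX and HKO cells overlapped with each other. The log2 fold change was -0.95 ± 0.043, adjusted p = 2.42e-10 in FLOX and -1.07 ± 0.043, adjusted p = 4.43e-11 in HKO cells.

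Ugt1a5 went from 24.1, 22.8, 21.3 and 23.0 TPM with vehicle to 14.5, 14.0, 12.2 and 12.1 TPM with palmitic acid in FLOX cells (-0.75 ± 0.079, adjusted p = 2.65e-06). In HKO cells it went from 24.7, 27.0, 28.2 and 26.8 TPM to 12.9, 13.4, 13.04 and 10.4 TPM (-1.05 ± 0.079, adjusted p = 4.91e-08), and in each genotype the vehicle and palmitic acid groups were separate. Ugt2b35 went from 18.3, 17.0, 17.5 and 16.3 TPM to 7.85, 11.3, 10.7 and 10.8 TPM in FLOX cells (-0.72 ± 0.090, adjusted p = 1.56e-05), the lowest being palmitic acid replicate 1. Its HKO values were 18.9, 21.6, 22.6 and 19.9 TPM and 12.2, 12.2, 11.4 and 12.9 TPM (-0.72 ± 0.090, adjusted p = 1.12e-05), again without overlap.

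Ugt2b34 fell by a similar amount, with log2 fold changes of -0.72 and -0.68, and Ugt2b5 fell with -0.49 and -0.42. Smaller falls were those of Ugt3a2 (-0.23 and -0.27), Ugt2a3 (-0.23 and -0.23) and Ugt2b1 (-0.22 and -0.23). Ugt1a1, the enzyme that conjugates bilirubin, passed with -0.17 ± 0.058, adjusted p = 0.0358 in FLOX cells, where the groups overlapped, and with -0.33 ± 0.058, adjusted p = 3.22e-04 in HKO cells, where they did not.

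The genes of the Ugt1a locus join different first exons to the same later exons, and 58.2% to 64.0% of the 50-base stretches of Ugt1a1, Ugt1a5 and Ugt1a9 occur in other genes of the locus. Their sum, with Ugt1a6a, Ugt1a6b, Ugt1a7c and the other members, is less affected by how shared reads were divided among them. It was 117.5 ± 6.2 TPM with vehicle and 90.9 ± 2.7 TPM with palmitic acid in FLOX cells and 124.5 ± 5.2 and 84.8 ± 1.8 TPM in HKO cells (SD, n = 4).

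The sulfate transferases held both the deepest fall and the only rise. Of the 6 tested, 3 fell and 1 rose in each genotype, with median log2 fold changes of -0.24 in FLOX and -0.27 in HKO cells. Sult1a1 stood at 354, 349, 359 and 341 TPM with vehicle and at 199, 144, 162 and 148 TPM with palmitic acid in FLOX cells. HKO cells held 338, 342, 334 and 368 TPM with vehicle and 142, 157, 155 and 138 TPM with palmitic acid. Treated and untreated groups were far apart in both genotypes, and within each treatment FLOX and HKO samples overlapped. The log2 fold changes were -1.11 ± 0.078, adjusted p = 2.88e-08 and -1.22 ± 0.078, adjusted p = 7.60e-09, ratios of the mean TPM of 0.465 and 0.428.

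Sult1e1, the estrogen sulfotransferase, which inactivates estrogens by sulfation, was a low transcript with vehicle and rose with palmitic acid. It stood at 5.32, 5.16, 5.73 and 4.96 TPM in FLOX cells with vehicle and at 19.4, 21.5, 21.4 and 20.5 TPM with palmitic acid. In HKO cells it stood at 4.65, 4.93, 5.42 and 4.85 TPM with vehicle and at 10.1, 11.6, 12.3 and 12.9 TPM with palmitic acid. The 2 vehicle groups overlapped, while every HKO sample with palmitic acid lay above all vehicle samples and below all FLOX samples with palmitic acid. The log2 fold change was 1.79 ± 0.073, adjusted p = 9.06e-11 in FLOX and 1.09 ± 0.073, adjusted p = 1.49e-08 in HKO cells, ratios of the mean TPM of 3.91 and 2.36. Its share of the sulfate transferase total was 1.22% with vehicle and 8.15% with palmitic acid in FLOX cells, and 1.19% and 5.49% in HKO cells.

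Sult1d1, which sulfates catecholamines and other phenols, stood at 56.2, 51.8, 53.9 and 55.5 TPM with vehicle and 47.2, 51.9, 51.4 and 50.5 TPM with palmitic acid in FLOX cells, groups that overlapped (-0.11 ± 0.060, adjusted p = 0.163). Under median-ratio scaling this FLOX difference was -0.21 and passed (adjusted p = 0.00944), as it did under quantile normalization (-0.17, adjusted p = 0.0304). In HKO cells it went from 42.7, 47.4, 41.4 and 41.5 TPM to 30.4, 33.6, 37.5 and 34.0 TPM without overlap (-0.35 ± 0.060, adjusted p = 2.54e-04). Sult2a8, a hepatic bile acid sulfotransferase, went from 15.6, 14.8, 15.6 and 16.8 TPM to 8.52, 11.7, 12.2 and 14.9 TPM in FLOX cells, where 1 treated sample overlapped the vehicle samples (-0.40 ± 0.12, adjusted p = 0.0158); with only these 2 groups fitted the call was lost (adjusted p = 0.0524). Its HKO values were 16.1, 15.9, 15.2 and 15.2 TPM and 10.4, 12.1, 14.0 and 13.4 TPM (-0.31 ± 0.12, adjusted p = 0.0484).

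**Figure D3:**
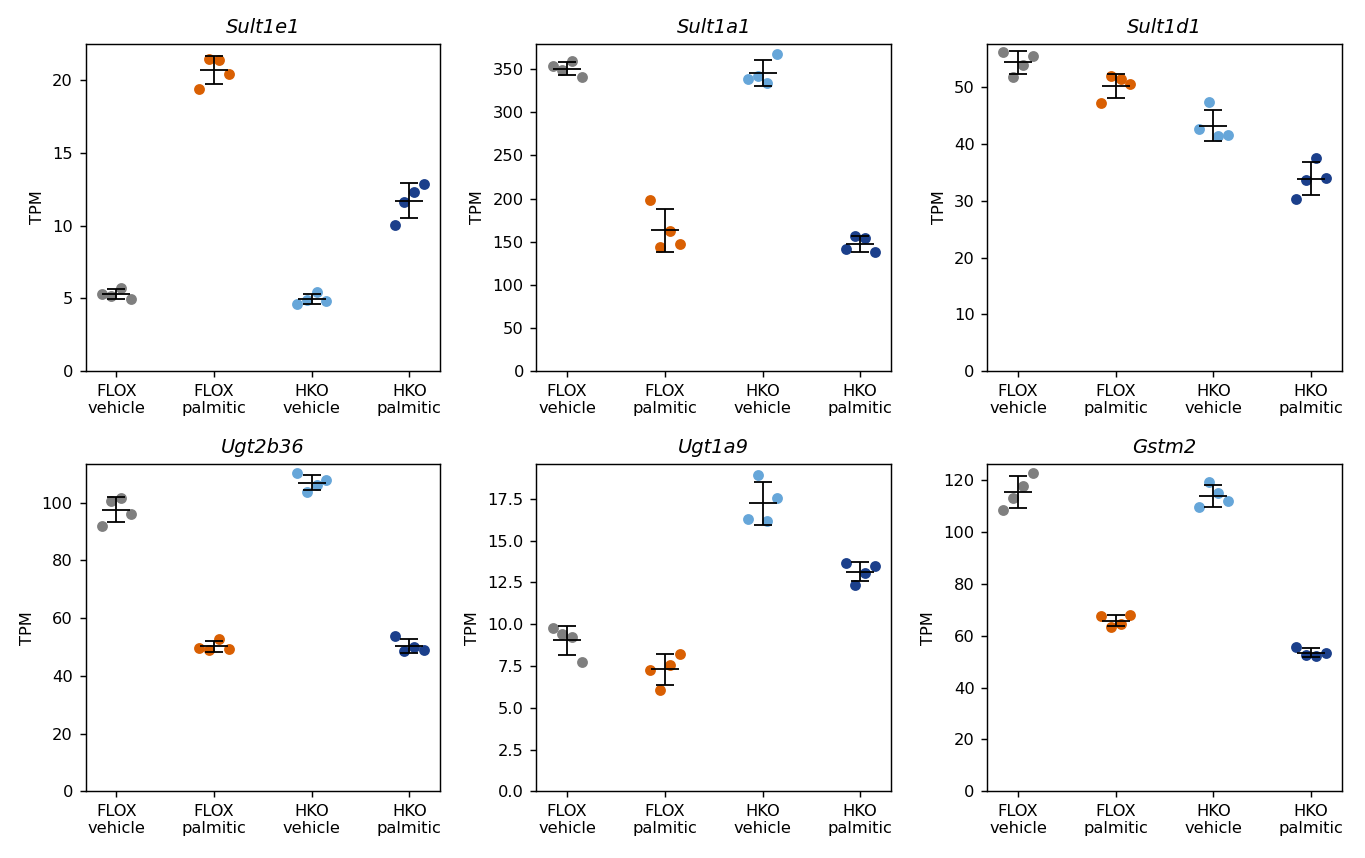
TPM of 6 transferases in each of the 16 samples (points) with the mean and SD of each group of 4 (black), in FLOX and HKO hepatocytes with vehicle or palmitic acid. Sult1e1 is at about 5 TPM in both vehicle groups and reaches 19.4 to 21.5 TPM in FLOX but 10.1 to 12.9 TPM in HKO cells with palmitic acid, whereas the other 5 are lower with palmitic acid or differ mainly between genotypes.

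Several calls with palmitic acid lay close to the threshold, and leaving out 1 library ended them. In FLOX cells the call of Ugt2b1 was lost without vehicle replicate 4 (adjusted p = 0.0571), and that of Ugt1a9 without vehicle or palmitic acid replicate 2 (at most 0.0698). The call of Ugt1a1 was lost without FLOX vehicle replicate 1 or 4 or palmitic acid replicate 1, 3 or 4 (at most 0.103). For Gstt3 in FLOX cells it was lost without vehicle replicate 2 or 3 or palmitic acid replicate 2 or 4 (at most 0.0789). Sult5a1 lost its FLOX call without FLOX vehicle replicate 1, 3 or 4, FLOX palmitic acid replicate 3 or 4, vehicle replicate 4 of HKO or palmitic acid replicate 3 of HKO (at most 0.139). In HKO cells the call of Gstt3 was lost without vehicle replicate 2, 3 or 4 or palmitic acid replicate 4 (at most 0.099), and that of Ugt2b38 without vehicle replicate 1, 2 or 4 or palmitic acid replicate 1 or 2 (at most 0.0823). Sult2a8 in HKO cells kept its call only without FLOX palmitic acid replicate 1 or 4 or HKO palmitic acid replicate 3, and lost it without any 1 of the other 13 libraries (at most 0.149).

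Some neighbouring transferase genes had quite different fold changes with palmitic acid. In the RefSeq gene order of GRCm38.p6, 7 mu-class genes lie next to each other on chromosome 3, in the order Gstm5, Gstm7, Gstm6, Gstm3, Gstm2, Gstm1 and Gstm4. Gstm5 stood at 32.2, 34.5, 34.8 and 30.7 TPM with vehicle and 34.2, 29.2, 29.7 and 35.1 TPM with palmitic acid in FLOX cells (-0.04 ± 0.063, adjusted p = 0.621). In HKO cells it stood at 32.4, 34.0, 32.9 and 35.4 TPM and 33.9, 30.7, 33.9 and 32.3 TPM (-0.04 ± 0.063, adjusted p = 0.632). All 4 groups overlapped. Of the other 6 genes, all fell in HKO cells and all but Gstm7 (adjusted p = 0.069) fell in FLOX cells. Their HKO log2 fold changes ran from -0.46 for Gstm6 to -1.08 for Gstm2, with Gstm3 at -0.70, Gstm1 at -0.60 and Gstm4 at -0.53.

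A second row of 13 genes lies on chromosome 5 and joins glucuronide to sulfate transferases, in the order Ugt2b34, Ugt2b1, Ugt2b35, Ugt2b36, Ugt2b5, Ugt2b37, Ugt2a3, Ugt2b38, Ugt2a1, Ugt2a2, Sult1b1, Sult1d1 and Sult1e1. Of its 10 tested genes, 6 of the 7 glucuronide transferases fell in FLOX cells and all 7 fell in HKO cells. At its end, Sult1b1 passed in neither genotype, Sult1d1 fell in HKO cells, and Sult1e1 rose in both.

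**Figure D4:**
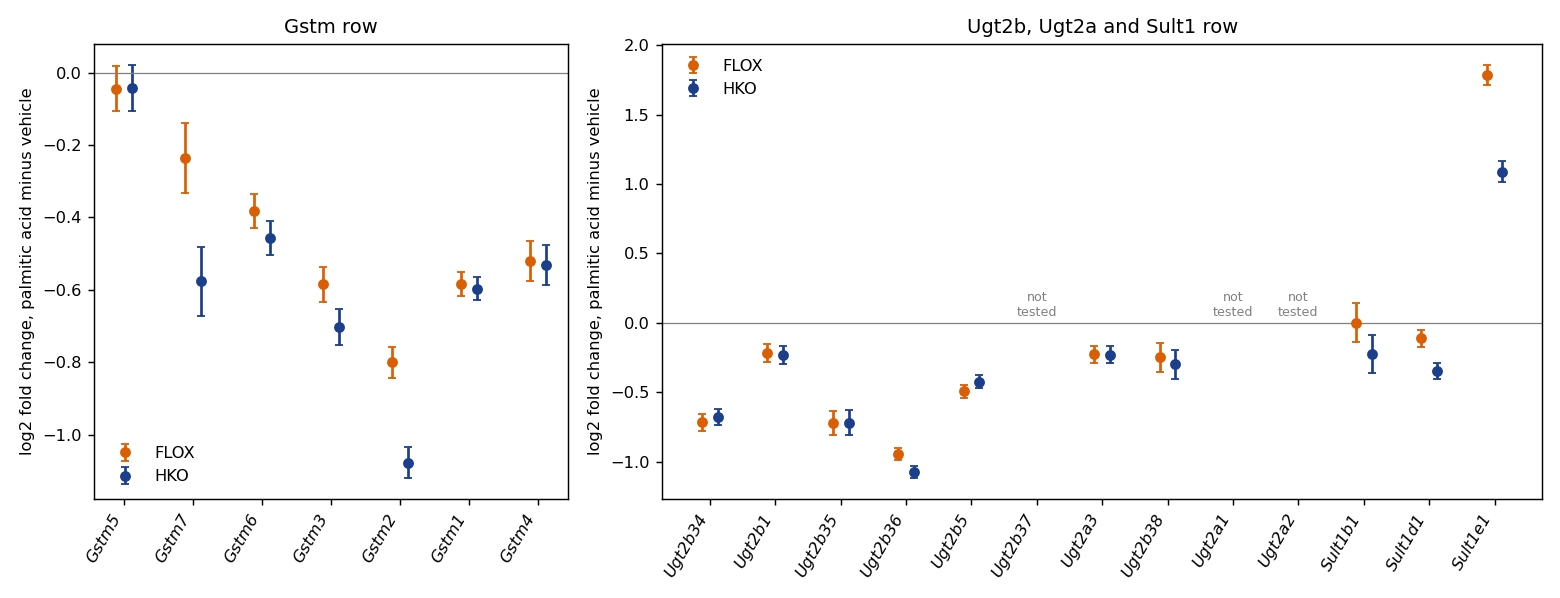
Log2 fold change with palmitic acid (log2(TPM + 1), ± standard error) of the transferases of 2 gene rows, in gene order and without distances, for FLOX and HKO cells; genes marked not tested did not pass the filter. Gstm5 lies at -0.04 in both genotypes beside 6 lower neighbours, and Sult1e1 lies at 1.79 and 1.09 at the end of a row whose tested glucuronide transferases are all below 0.

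In the rows above Sult1d1 and Sult1e1 are adjacent, while Gstm7, Gstm6 and Gstm3 lie between Gstm5 and Gstm2. Gstm5 and Gstm2 had the smallest and largest changes of their row with palmitic acid. The promoters of both pairs are shown because the genes of each pair had different fold changes with palmitic acid. They are the 250 bases before the RefSeq transcription start (GRCm38.p6), written 5′ to 3′ on the gene's strand: chr5:87591612-87591861 on the minus strand for Sult1e1, chr5:87569007-87569256 on the minus strand for Sult1d1, chr3:107986421-107986670 on the minus strand for Gstm2 and chr3:107895604-107895853 on the plus strand for Gstm5. Capitals mark matches, on either strand, to TGACNNNGC, the core of the antioxidant response element, and to GCGTG, the core that the aryl hydrocarbon receptor binds.
Sult1e1: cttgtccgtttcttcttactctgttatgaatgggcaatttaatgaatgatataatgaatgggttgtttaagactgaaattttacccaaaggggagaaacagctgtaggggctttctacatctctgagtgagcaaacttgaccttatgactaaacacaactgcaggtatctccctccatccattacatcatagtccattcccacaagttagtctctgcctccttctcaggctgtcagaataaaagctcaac
Sult1d1: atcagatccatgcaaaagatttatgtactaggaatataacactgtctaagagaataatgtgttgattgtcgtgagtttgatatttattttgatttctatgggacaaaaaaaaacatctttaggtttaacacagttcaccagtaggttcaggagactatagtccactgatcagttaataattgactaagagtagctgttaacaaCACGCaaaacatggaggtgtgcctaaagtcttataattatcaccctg
Gstm2: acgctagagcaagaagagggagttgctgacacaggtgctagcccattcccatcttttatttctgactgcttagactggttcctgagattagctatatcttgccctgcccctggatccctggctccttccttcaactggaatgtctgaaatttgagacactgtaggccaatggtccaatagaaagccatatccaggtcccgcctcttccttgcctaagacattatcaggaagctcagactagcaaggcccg
Gstm5: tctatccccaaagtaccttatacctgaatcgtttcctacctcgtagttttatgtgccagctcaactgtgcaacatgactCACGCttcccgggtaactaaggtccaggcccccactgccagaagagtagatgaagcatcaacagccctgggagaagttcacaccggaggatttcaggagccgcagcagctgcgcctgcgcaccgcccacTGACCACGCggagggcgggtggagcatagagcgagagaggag
Gstm5, which did not pass with palmitic acid, held 1 match to TGACNNNGC, beginning 42 bases before the start, and 2 matches to GCGTG on the other strand, 171 and 38 bases before it; the last of these overlaps the TGACNNNGC match. Sult1d1 held 1 match to GCGTG on the other strand, 47 bases before the start, and the windows of Sult1e1 and Gstm2 held neither set of letters. Among the tested transferases with a listed promoter, 4 of 35 (11.4%) held TGACNNNGC and 9 of 35 (25.7%) held GCGTG. Among all genes with a listed promoter the shares were 11.5% and 30.9%. Such a match is a description of the letters only.

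Fewer transferases passed between HKO and FLOX cells than with palmitic acid, mostly glutathione transferases that were lower in HKO cells. Under vehicle 11 of 38 genes were lower and 3 higher in HKO cells, where 11.7% of all genes tested passed, 7.56% as lower and 4.11% as higher. Under palmitic acid 16 were lower and 3 higher, where 9.74% of all genes passed, 5.5% as lower and 4.24% as higher. The median log2 fold change of the 38 was -0.03 under vehicle and -0.13 under palmitic acid, beside -0.02 and -0.01 over all genes. Under median-ratio scaling 9 were lower and 4 higher under vehicle, where 4.22% and 5.66% of all genes were, and 14 were lower and 4 higher under palmitic acid, where 3.96% and 4.92% were. The 2 comparisons use different samples but share the estimate of spread from the fit of all samples. The 11 genes lower under vehicle were all among the 16 lower under palmitic acid, and the 3 higher ones were the same in both. The share of all genes called alike in both was not counted, so this overlap has no background beside it.

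**Figure D5:**
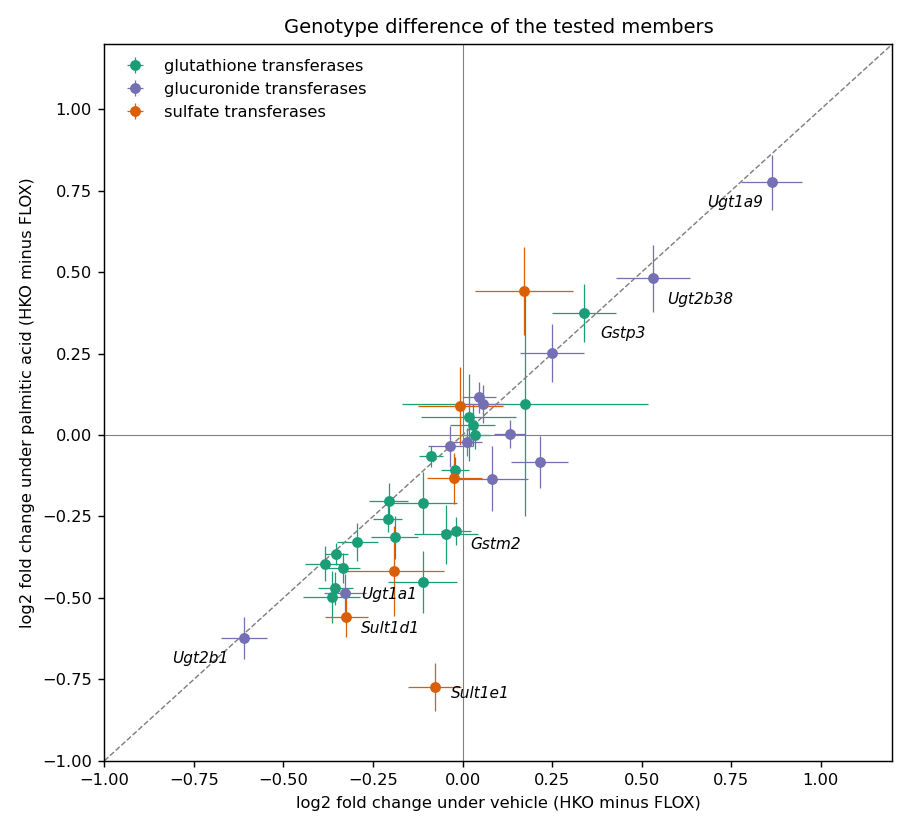
Log2 fold change between genotypes (HKO minus FLOX, on log2(TPM + 1)) of the 38 tested transferases under vehicle (horizontal) and under palmitic acid (vertical), coloured by class; bars are standard errors and the dashed line marks equal difference. Ugt1a9, Ugt2b38 and Gstp3 lie to the upper right, Ugt2b1 and Sult1d1 to the lower left, and Sult1e1 is near 0 under vehicle but at -0.77 under palmitic acid.

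Of the 20 glutathione transferases, 8 were lower and 1 higher in HKO cells under vehicle, and 12 were lower and 1 higher under palmitic acid. The alpha-class genes Gsta1, Gsta2, Gsta3 and Gsta4 and the mu-class genes Gstm1, Gstm3, Gstm4 and Gstm6 were lower under both treatments. Gstm4 stood at 31.6, 34.9, 36.8 and 34.1 TPM in FLOX and 25.9, 26.6, 25.2 and 26.5 TPM in HKO cells with vehicle (-0.38 ± 0.055, adjusted p = 2.19e-04). With palmitic acid it stood at 26.1, 23.1, 23.0 and 22.4 TPM in FLOX and 16.9, 17.8, 18.0 and 18.2 TPM in HKO cells (-0.39 ± 0.055, adjusted p = 1.74e-04). All 4 groups were separate except that HKO vehicle and FLOX palmitic acid overlapped.

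Gstm3 stood at 176, 195, 191 and 199.6 TPM in FLOX and 141, 146, 159 and 148 TPM in HKO cells with vehicle (-0.35 ± 0.050, adjusted p = 1.85e-04). With palmitic acid the values were 123, 131, 124 and 127 TPM in FLOX and 90.1, 89.9, 85.6 and 98.5 TPM in HKO cells (-0.47 ± 0.050, adjusted p = 9.73e-06). HKO samples lay below FLOX samples under each treatment. The most abundant of this group, Gstm1, had log2 fold changes of -0.35 ± 0.033, adjusted p = 2.45e-06 under vehicle and -0.37 ± 0.033, adjusted p = 1.57e-06 under palmitic acid.

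Gsta2 stood at 50.4, 64.8, 67.7 and 59.5 TPM in FLOX and 46.9, 42.6, 51.0 and 46.0 TPM in HKO cells with vehicle, where 1 HKO sample reached above the lowest FLOX sample (-0.37 ± 0.080, adjusted p = 0.0072). With palmitic acid it stood at 45.0, 45.0, 46.6 and 43.3 and 30.9, 30.9, 29.6 and 35.2 TPM, without overlap (-0.50 ± 0.080, adjusted p = 6.93e-04). Of the 50-base stretches of Gsta1, 89.7% occur in other genes, mostly in Gm3776, and 47.4% of those of Gsta2 do, so the split among them is uncertain. Their sum with Gm3776 was 1550.1 ± 89.8 and 1264 ± 39 TPM in FLOX and HKO cells with vehicle, and 1336 ± 36 and 1072 ± 100 TPM with palmitic acid (SD, n = 4).

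Gstm2, Gstm7, Gsto1 and Mgst3 were called lower in HKO cells under palmitic acid alone; whether the genotype difference depends on treatment is the question of the interaction below. Gstm7 stood at 8.70, 9.59, 11.5 and 9.24 TPM in FLOX and 7.30, 7.08, 7.01 and 5.99 TPM in HKO cells with palmitic acid (-0.45 ± 0.096, adjusted p = 0.00645). With vehicle it stood at 12.3, 10.1, 13.7 and 10.7 and 9.86, 11.1, 10.9 and 10.9 TPM, and these overlapped (adjusted p = 0.54). Gstp3 was the 1 glutathione transferase higher in HKO cells, with 0.34 ± 0.089, adjusted p = 0.0217 under vehicle and 0.38 ± 0.089, adjusted p = 0.0129 under palmitic acid; the latter call was lost when only the 2 groups compared were fitted (adjusted p = 0.0901). The abundant Gstp1 did not pass under either treatment (adjusted p = 0.697 and 0.998).

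Among the 12 glucuronide transferases 2 were higher and 2 lower in HKO cells under each treatment. The count of higher ones depended on the scaling: under vehicle it was 3 with median-ratio scaling and 5 with quantile normalization, and under palmitic acid it was 3 with either, while 2 were lower in each case. Ugt1a9, an enzyme for phenols and fatty acids, stood at 9.75, 9.40, 9.22 and 7.76 TPM in FLOX and 16.3, 18.9, 16.2 and 17.6 TPM in HKO cells with vehicle (0.86 ± 0.085, adjusted p = 4.97e-06). With palmitic acid it stood at 7.27, 6.08, 7.57 and 8.24 and 13.7, 12.3, 13.1 and 13.5 TPM (0.78 ± 0.085, adjusted p = 1.39e-05). Every HKO sample lay above every FLOX sample, across both treatments. Ugt2b38 stood at 4.38, 2.99, 4.19 and 3.97 and 6.11, 6.26, 5.61 and 6.07 TPM with vehicle (0.53 ± 0.10, adjusted p = 0.00312) and at 2.67, 3.72, 3.09 and 2.94 and 4.28, 4.35, 5.35 and 4.90 TPM with palmitic acid (0.48 ± 0.10, adjusted p = 0.00704). HKO samples were again higher under each treatment, although 37.4% of the 50-base stretches of Ugt2b38 occur in other genes, mostly the more abundant Ugt2b5.

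Ugt2b1 stood at 25.8, 25.2, 24.8 and 27.5 TPM in FLOX and 17.4, 16.6, 16.2 and 16.1 TPM in HKO cells with vehicle (-0.61 ± 0.065, adjusted p = 1.14e-05). With palmitic acid it stood at 19.1, 24.7, 22.1 and 22.7 and 14.1, 14.5, 14.0 and 13.3 TPM (-0.62 ± 0.065, adjusted p = 8.47e-06). All HKO samples lay below all FLOX samples, and none of its 50-base stretches occurs in another gene. Ugt1a1 stood at 47.0, 41.5, 40.0 and 43.1 and 33.1, 35.6, 34.3 and 32.8 TPM with vehicle (-0.33 ± 0.058, adjusted p = 0.00148) and at 35.0, 41.6, 37.0 and 38.9 and 27.9, 26.7, 27.3 and 25.6 TPM with palmitic acid (-0.49 ± 0.058, adjusted p = 3.49e-05). It was lower in HKO cells where Ugt1a9, from the same locus, was higher.

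Of the 6 sulfate transferases, Sult1d1 was lower in HKO cells under both treatments, with -0.32 ± 0.060, adjusted p = 0.00213 under vehicle and -0.56 ± 0.060, adjusted p = 1.17e-05 under palmitic acid, and within each treatment no HKO sample reached a FLOX sample. Sult1e1 was lower under palmitic acid (-0.77 ± 0.073, adjusted p = 3.17e-06) and did not pass under vehicle (-0.08 ± 0.073, adjusted p = 0.582). For Sult1a1 the adjusted p was 0.91 under vehicle and 0.35 under palmitic acid.

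Some genotype calls also ended when 1 library was left out. Under vehicle the call of Gsta4 was lost without FLOX vehicle replicate 4 or replicate 1 or 4 of HKO with vehicle (adjusted p at most 0.0761), and that of Gstp3 without FLOX vehicle replicate 3 or 4 or HKO vehicle replicate 1 or 2 (at most 0.0562). Under palmitic acid the call of Gsta4 was lost without FLOX or HKO palmitic acid replicate 1, FLOX palmitic acid replicate 2 or HKO palmitic acid replicate 4 (at most 0.0763). Gsto1 lost its call under palmitic acid without any 1 of 10 libraries, namely vehicle replicates 1, 2 and 3 and palmitic acid replicates 2, 3 and 4 of FLOX and vehicle replicates 2 and 3 and palmitic acid replicates 1 and 2 of HKO cells (at most 0.136). Under median-ratio scaling Gsta3 and Gsta4 missed the threshold under vehicle (0.0895 and 0.0719), and Gsta4 and Gsto1 missed it under palmitic acid (0.0507 and 0.0633).

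The response to palmitic acid differed between genotypes for 1 of the 38 transferases. In this interaction test, the HKO response minus the FLOX response, 0.194% of all genes passed, 0.0422% as lower and 0.152% as higher. Sult1e1 had a difference of -0.70 ± 0.10, adjusted p = 0.0122, so its rise was smaller in HKO cells. Under the alternatives tried this difference ran from -0.76 to -0.63 and its adjusted p from 0.00471 to 0.111. Among the other members, Gstm2 came nearest (-0.28 ± 0.061, adjusted p = 0.0925), followed by Sult1d1 (-0.23 ± 0.085, adjusted p = 0.464) and Ugt1a5 (-0.30 ± 0.11, adjusted p = 0.494). For Sult1a1, the deepest fall, the difference was -0.11 ± 0.11, adjusted p = 0.885. The median difference of the 38 genes was -0.06, beside 0.02 over all genes, and a missed threshold here does not show that the genotypes responded alike. None of the 50-base stretches of Sult1e1 occurs in another gene.

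Of 8 tested genes listed with the supply of glutathione, 2 rose and 4 fell in each genotype. Among all genes tested 23% rose and 11.5% fell in FLOX cells, and 29.4% rose and 13.1% fell in HKO cells. The 2 rises of 8 are near these shares, which also stand beside the counts of the supply, export and other conjugation lists below. The falls include Chac1 (-0.38 in FLOX and -0.19 in HKO cells), whose product breaks glutathione down rather than supplying it. Gclc, the catalytic subunit of the first step of glutathione synthesis, fell from 274.3 ± 16.8 to 198.1 ± 18.6 TPM in FLOX and from 290.0 ± 16.1 to 203.9 ± 8.1 TPM in HKO cells (SD, n = 4). Cbs and Cth, which make cysteine from homocysteine, fell with log2 fold changes of -0.84 and -0.56 in FLOX and -0.84 and -0.66 in HKO cells. Slc7a11, a cystine importer, rose with 1.31 and 1.54, and Gsr, which regenerates glutathione from its oxidised form, rose with 0.59 and 0.68.

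For UDP-glucuronate, 3 of 4 listed genes fell and 1 rose in FLOX cells, and 2 fell and 1 rose in HKO cells. The 1 that rose was Slc35b1 (0.23 in FLOX and 0.36 in HKO cells), whose part in UDP-glucuronate supply is not established. Ugp2, which makes UDP-glucose, fell from 222.5 ± 5.3 to 129.3 ± 7.4 TPM in FLOX and from 305.8 ± 11.9 to 150.6 ± 4.5 TPM in HKO cells (SD, n = 4), and was higher in HKO cells under vehicle (0.46) and palmitic acid (0.22, log2 fold changes). Ugdh, which oxidises UDP-glucose to UDP-glucuronate, fell in FLOX cells with -0.19. Slc35d1, which carries UDP-glucuronate into the endoplasmic reticulum, fell with -0.38 in FLOX and -0.54 in HKO cells.

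Of the 6 tested genes for the supply and removal of PAPS, none passed in FLOX cells with palmitic acid and 1, Papss1, fell in HKO cells (-0.17). Papss2, a PAPS synthase, was lower in HKO cells under both treatments (-0.37 under vehicle and -0.29 under palmitic acid). Of the 3 tested exporters of conjugates, Abcg2 fell in both genotypes (-0.39 and -0.52), and Abcc2 and Abcc3 passed in no comparison.

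Of 11 tested enzymes of other conjugation reactions, 6 fell and 1 rose in FLOX cells, and 8 fell and 1 rose in HKO cells. Baat, which joins bile acids to glycine or taurine, fell from 30.6 ± 0.7 to 13.7 ± 0.8 TPM in FLOX and from 25.4 ± 1.6 to 11.7 ± 0.6 TPM in HKO cells (SD, n = 4). Nnmt, which methylates nicotinamide, fell with -0.86 and -0.72. Nat2, an arylamine acetyltransferase, rose with 0.30 and 0.23. Inmt, an indolethylamine methyltransferase, did not pass with palmitic acid and was lower in HKO cells, at 8.56 ± 0.97 TPM with vehicle against 27.6 ± 2.1 TPM for FLOX (SD, n = 4).

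Of 11 genes of factors known to control transferases, 1 rose and 2 fell in FLOX cells. Among all genes tested there, 23% rose and 11.5% fell. In HKO cells 2 rose and 4 fell, where 29.4% of all genes tested rose and 13.1% fell. Nr1i2 (PXR) fell with -0.29 and -0.41. Nr1i3 (CAR), counted among the falls, stood at 1.24 ± 0.23 and 0.625 ± 0.064 TPM in FLOX cells with vehicle and palmitic acid and at 1.21 ± 0.38 and 0.578 ± 0.147 TPM in HKO cells (SD, n = 4); it reached the filter through the vehicle groups, where it was high, so its calls are no independent result. Of their readouts, Cyp2b10 fell in both genotypes (-1.22 and -0.96), and Cyp3a11 fell in FLOX cells (-0.28) and was lower in HKO cells under vehicle (-0.90) and palmitic acid (-0.80). Among 6 readouts of NRF2, Srxn1 and Txnrd1 rose in both genotypes (0.97 and 0.55 in FLOX, 0.96 and 0.49 in HKO), while Gclc fell in both. Hmox1 fell in FLOX cells (-0.44) and did not pass in HKO cells. It was the 1 readout of the 6 called higher in the interaction, where 0.152% of all genes were. Under palmitic acid 1 of the 6 was higher and 1 lower in HKO cells, where 4.24% and 5.5% of all genes were. Nqo1 did not pass with palmitic acid and was lower in HKO cells (-0.47 under vehicle and -0.59 under palmitic acid). Among 3 tested readouts of the aryl hydrocarbon receptor, Tiparp rose in both genotypes (0.93 and 1.21), and Cyp1a2 fell in both (-0.27 and -0.19). Between genotypes 2 of these readouts went opposite ways: Cyp1a2 was lower in HKO cells (-0.52 under vehicle and -0.45 under palmitic acid), and the less abundant Cyp1a1 was higher (1.28 and 1.08).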

How the data were processed

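RNA of cultured primary mouse hepatocytes was sequenced in 16 samples, 4 per group. The authors deposited TPM with 2 decimals for 55416 mouse Ensembl gene IDs, and each column summed to between 975816 and 984870. The submitters' processing notes list RSEM 1.3.3 next to a human build that mouse IDs cannot come from, and no coordinates were taken from it. The aligner was not given in the sources used here, nor was the annotation. A gene-name table matched 52083 IDs (94.0%), and all 62 members were found.

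The 11858 genes that reached 1 TPM in 4 or more samples were compared on log2(TPM + 1), so with a pseudocount of 1, by limma 3.58.1 (R 4.3.3). A single fit held every sample, with 4 group means and a mean-variance trend. Tests were two-sided, and p-values of each of the 5 comparisons were adjusted over all of these genes by the Benjamini-Hochberg method, with a threshold of 0.05. No batch is stated in the labels, so none was modelled.

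The members, the gene lists and the tests were chosen with earlier results of these data known. Values in every sample are given for up to 3 members per class and comparison with the largest changes past the threshold, for the most abundant member of each class and for each member past the threshold in the interaction; Gstm5, Gsto1, Sult1d1 and Ugt1a1 are also described for their place in a gene row or their function, chosen after their values were seen where the rule does not name them. Shared 50-base stretches were counted in GENCODE M21 transcripts. Promoters came from a RefSeq table (GRCm38.p6), which held 55 of the 62 members.

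The alternatives tried were median-ratio scaling, quantile normalization, a pseudocount of 0.1, a filter of 5 TPM or none, no mean-variance trend, sample quality weights, only the groups compared, a replicate block, leaving out each sample, and leaving out both FLOX libraries numbered 1. On simulated data with 200 of 11858 genes changed by 0.5 on the log2 scale, 78% were recovered in the FLOX palmitic acid comparison, 60.5% in the vehicle comparison of genotypes and 33.5% in the interaction. For a change of 0.3 the shares were 28%, 32% and 7%. Of the calls made in these runs, 4.88%, 8.33% and 4.29% were false for a change of 0.5 and 11.11%, 1.54% and 6.67% for 0.3. The simulated runs changed far fewer genes than passed with palmitic acid in the data (34.4% in FLOX and 42.5% in HKO cells). Their shares recovered therefore do not describe the palmitic acid comparisons of the data.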

Additional observations from a re-analysis of the deposited data

Results flagged for a closer look

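Sult1e1 was the 1 transferase whose response to palmitic acid differed between genotypes by the test of that difference (-0.70 on the log2 scale, HKO minus FLOX). In 10 of 152 groups of 4 samples checked over the 38 tested genes, 1 sample stood far from the other 3, where chance flags about 1 in 20 groups. In FLOX vehicle replicate 1 these were Gstp1 at 3576 TPM, against 3942 to 3968 TPM in the other 3 samples, and Ugt2b5 at 57.2 TPM, against 59.99 to 60.15 TPM. In FLOX cells with palmitic acid, Ugt2b35 was low in replicate 1 at 7.85 TPM, against 10.7 to 11.3 TPM, and Gstt2 was low in replicate 2 at 21.1 TPM, against 26.2 to 27.1 TPM. In HKO cells with vehicle, Gstm7 was low in replicate 1 at 9.86 TPM, against 10.9 to 11.1 TPM, and Sult1b1 was high in replicate 2 at 4.53 TPM, against 3.23 to 3.41 TPM. In HKO cells with palmitic acid, replicate 1 was high for Gstm6 at 24.8 TPM, against 22.8 to 22.9 TPM, and low for Sult5a1 at 3.63 TPM, against 4.58 to 4.73 TPM. Replicate 4 of that group was low for Ugt1a5 at 10.4 TPM, against 12.9 to 13.4 TPM, and high for Ugt3a1 at 5.09 TPM, against 3.79 to 3.99 TPM.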

How the results depend on the processing

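Of 97 calls of single members, 81 held under every alternative that gave a value, 16 were lost under at least 1, and none changed sign. Total counts of members called, both directions together, stayed within 1.5 times of the values reported in 4 of the 5 comparisons. The count higher in HKO cells under vehicle was 3 as reported and 6 under quantile normalization or with sample quality weights. In the interaction, the replicate block, which takes the shared sample numbers as pairs, left 0 calls where 1 was made, with an adjusted p of 0.111 for Sult1e1; by limma 3 genes in all passed under it, and 23 without it. That block lost 4 calls with palmitic acid in FLOX, 3 in HKO, 0 between genotypes under vehicle and 1 under palmitic acid. Samples with the same number did not deviate together (r from -0.150 to 0.036 over the 4 FLOX pairs and from -0.026 to 0.086 over the 4 HKO pairs, across genes), and not every sample correlated best with its own number; the labels do not say what a number marks. Over all genes, 9 passed the interaction test under median-ratio scaling and 5 without the mean-variance trend. Median-ratio scaling moved all 12 summed levels, and these by more than 1 SD of the 4 samples: glutathione transferases to 6860 TPM in FLOX with palmitic acid, 8426 TPM in HKO with vehicle and 6319 TPM in HKO with palmitic acid; glucuronide transferases to 400.1 TPM in FLOX with vehicle, 422.8 TPM in HKO with vehicle and 254.1 TPM in HKO with palmitic acid; sulfate transferases to 447.1 TPM in FLOX and 439.2 TPM in HKO with vehicle. The cause was not tested. Depth is unknown, so for low members such as Gstt3 counting error could not be separated from other spread.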
